A study of Zea mays with 8 samples.

Results

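The z1C genes are a subfamily of alpha zein genes of maize (Zea mays), and 8 of the 39423 genes in the deposited tables were taken as its members by their gene IDs: z1C1_4, z1C2, z1C1_19, z1C1_5, z1C1_7, z1C1_12, z1C1_8 and z1C1_11. Their levels were measured by RNA sequencing of endosperm, the storage tissue of the kernel, at 12 days after pollination in the W22 background. Of the 8 libraries, 4 came from pools of kernels labelled ded1-ref and 4 from pools of their normal siblings. The ded1-ref mutation affects ded1, which is known to encode a MYB transcription factor of the endosperm. Each ded1-ref pool was paired with a normal pool, and the pools are described as biological replicates.

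Alpha zeins are the main storage proteins of the maize kernel. They are made on the rough endoplasmic reticulum of starchy endosperm cells and packed there into protein bodies, with alpha zeins in the core and gamma and beta zeins toward the surface. The z1C genes code for the larger alpha zeins, are known targets of the transcription factor Opaque2, and lie mostly in 1 tandem cluster of very similar copies. z1C2 is the floury2 gene, whose classic mutant allele carries a zein with a signal peptide that is not removed.

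Levels are in TPM, each transcript's share of its library after correction for transcript length, so that copies of different length can be compared. Since TPM are shares, a rise in some transcripts lowers the values of others. The median tested gene changed by -0.68 in log2 TPM. Each test was therefore repeated on TPM divided by a library factor that holds the median gene level, with a median change of -0.0031, and this is called the scaled test. "Rose" and "fell" are used below for genes that passed both tests one way (limma with Benjamini-Hochberg adjustment over 13671 genes, threshold 0.05). In TPM 3.53% of these genes were higher and 69.8% lower in the libraries labelled ded1-ref, while 12.3% were higher and 10.6% lower after scaling. The libraries held from 13924952 to 20725033 recovered reads in ded1-ref and from 10536845 to 16246294 in normal endosperm. ded1 itself stood at 67.3 to 101 TPM in the libraries labelled ded1-ref, against 37.0 to 42.0 TPM in normal libraries, which does not check the labels, as they do not give the nature of the lesion. The starchy endosperm markers summed to 19748 to 29064 TPM in ded1-ref and 33505 to 43727 TPM in normal endosperm. Most of this sum came from the zein genes gz16 and gz27, so it is largely a zein level. Their means were 17630 and 4416 TPM in ded1-ref and 29448 and 5703 TPM in normal endosperm, and both are counted again among the gamma zeins below. Not every marker was abundant, since the marker ID GRMZM2G146267 stood at 1.91 TPM in ded1-ref and 2.64 TPM in normal endosperm.

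Together the 8 z1C genes took up a larger part of the endosperm transcripts in ded1-ref. Their summed share of all TPM was 19.1%, 17.4%, 19.2% and 16.3% in ded1-ref replicates 1 to 4, against 12.9%, 11.1%, 11.8% and 13.0% in normal replicates 1 to 4. All 4 libraries labelled ded1-ref lay above all 4 normal ones, with means of 18.0% ± 1.402 in ded1-ref and 12.2% ± 0.884 in normal endosperm (SD, n = 4 each). The sum was higher in each pair, by 1.48-fold in pair 1, 1.56-fold in pair 2, 1.63-fold in pair 3 and 1.26-fold in pair 4. After scaling to the median gene, the ded1-ref mean of the sum was 2.70 times the normal mean, and the ded1-ref libraries were spread more widely, from 178761 to 320189 units, against 77106 to 104183 in normal libraries. No test of the sum is given, because the members were chosen with results of these data known. In whole tissue, more transcripts per cell and a larger part of the tissue made up of zein-filled cells cannot be told apart.

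**Figure D1:**
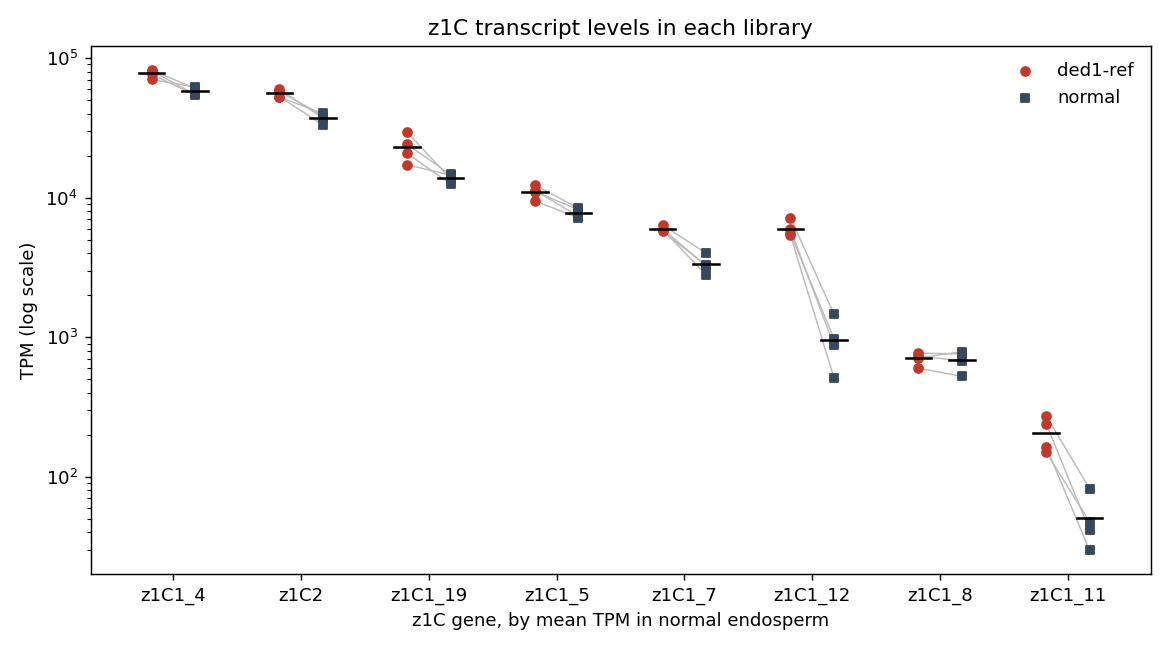
TPM of each z1C gene (log scale) in the 4 libraries labelled ded1-ref (circles) and the 4 normal libraries (squares), with pairs joined by grey lines and group means as black bars. z1C1_12 and z1C1_11 stand far higher in ded1-ref, at mean folds of 6.27 and 4.12, while the libraries of z1C1_8 overlap.

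All 8 members passed the filter on low values, 7 rose, and z1C1_8 passed after scaling only. The background is 3.53% of tested genes higher on both scales and 12.3% higher in the scaled test. The TPM of 7 members did not overlap between the groups, which held in the same direction for 2.14% of all tested genes. The median log2 change of the members was 0.64 in TPM and 1.48 after scaling, against -0.68 and -0.0031 for all tested genes.

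The 2 most abundant copies rose by 1.34-fold and 1.49-fold between the group means. z1C1_4 (GRMZM2G044625), the leading copy, had 82148, 76567, 80998 and 70179 TPM in ded1-ref, against 60554, 54252, 54924 and 62094 TPM in normal endosperm. It ranked as the gene with the 3rd highest TPM of all genes in both groups. Its groups did not overlap, and its log2 change was 0.42 ± 0.13 (SE) in TPM and 1.26 ± 0.33 after scaling (limma adjusted p = 0.0123 and 0.0244). Fits with 1 pair fewer lost the call while the change stayed near its size. Without replicate 2 the log2 change in TPM was 0.39 (limma adjusted p = 0.0749), and without replicate 1 or replicate 4 the scaled one was 1.25 and 1.37 (limma adjusted p = 0.168 and 0.227). z1C2 (GRMZM2G397687), the floury2 gene, had 57718, 52944, 59790 and 52498 TPM in ded1-ref, against 38723, 33212, 37230 and 40139 TPM in normal endosperm. Its groups did not overlap either, with a log2 change of 0.58 ± 0.13 (SE) in TPM and 1.42 ± 0.30 after scaling (limma adjusted p = 0.00161 and 0.00917). Without replicate 1 or replicate 4 its scaled log2 change was 1.42 and 1.52 and the call was lost (limma adjusted p = 0.0925 and 0.134).

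The 3 copies of middle abundance rose too. z1C1_19 (GRMZM2G160739) had 24055, 20797, 29429 and 17183 TPM in ded1-ref, against 14651, 12509, 13642 and 14493 TPM in normal endosperm. The libraries labelled ded1-ref were spread widely and all above the normal ones, and its log2 change was 0.70 ± 0.15 (SE) in TPM (limma adjusted p = 0.00114). z1C1_5 (GRMZM2G045387), which the reference assembly lists as a transcribed pseudogene, had 12314, 11271, 9492 and 11037 TPM in ded1-ref, against 8389.5, 7355, 7141 and 8214 TPM in normal endosperm. Its log2 change was 0.50 ± 0.12 (SE) in TPM (limma adjusted p = 0.00240). z1C1_7 (GRMZM2G346897) had 6375, 5893, 5728 and 5967 TPM in ded1-ref, against 3994, 2790, 3268 and 3234 TPM in normal endosperm. Its libraries labelled ded1-ref lay close together, and its log2 change was 0.86 ± 0.12 (SE) in TPM (limma adjusted p = 8.3e-05). The scaled log2 changes of z1C1_19, z1C1_5 and z1C1_7 were 1.54, 1.34 and 1.70, and all 3 passed (limma adjusted p = 0.00425, 0.00195 and 2.7e-04).

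The 3 least abundant copies of normal endosperm did not move alike. z1C1_12 (GRMZM2G088365) had 7177, 5353, 5918 and 5534 TPM in ded1-ref, against 1460, 513, 872 and 978 TPM in normal endosperm. The lowest ded1-ref library thus stood well above the highest normal one, with means of 5995 ± 822 TPM in ded1-ref and 956 ± 391 TPM in normal endosperm (SD, n = 4 each). Its log2 change was 2.73 ± 0.16 (SE) in TPM and 3.58 ± 0.20 after scaling (limma adjusted p = 1.3e-07 and 1.3e-05), the 13th and 10th highest of the 13671 tested genes. z1C1_11 (GRMZM2G088273), listed as a transcribed pseudogene in the reference assembly, was the lowest copy and had 274, 241, 165 and 150.2 TPM in ded1-ref, against 82.3, 41.5, 29.8 and 47.6 TPM in normal endosperm. Its groups did not overlap, and it rested on 2442 to 5972 reads in ded1-ref and 401 to 1159 in normal libraries, so counting error is small beside the spread between pools. That does not cover reads of other copies assigned to z1C1_11, which were not examined. Its log2 change was 2.07 ± 0.17 (SE) in TPM and 2.90 ± 0.19 after scaling (limma adjusted p = 1.5e-06 and 3.1e-05). z1C1_8 (GRMZM2G044152) had 711, 734, 769 and 600.4 TPM in ded1-ref, against 786, 677, 758 and 524 TPM in normal endosperm. Its groups overlapped, with a log2 change of 0.05 ± 0.12 (SE) in TPM (limma adjusted p = 0.717), and it passed only relative to the median gene (0.89 ± 0.15 in the scaled test, limma adjusted p = 0.00271).

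In the name table's assembly, Zm-B73-REFERENCE-NAM-5.0, z1C1_11 and z1C1_12 follow each other in the order of the 15 z1C-named genes. So do z1C1_4 and z1C1_5, and z1C1_7 and z1C1_8. The first 2 neighbours were the members with the largest folds. z1C1_4 and z1C1_5 both rose, by 1.34-fold and 1.42-fold between the group means, while z1C1_7 rose and its neighbour z1C1_8 did not pass in TPM. This order and the listing as pseudogenes are those of a B73 assembly, while the plants were in the W22 background. Whether the W22 copies match those of B73 was not examined. The genome that the reads were mapped to is not given in the sources used here. Nor is the treatment of reads that fit several of these similar copies, so the split of reads between copies is uncertain.

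The order of the copies by level changed in the lower ranks. In normal endosperm it ran z1C1_4, z1C2, z1C1_19, z1C1_5, z1C1_7, z1C1_12, z1C1_8 and z1C1_11, and only z1C1_12 and z1C1_8 overlapped as neighbours in this order. In ded1-ref z1C1_12 (5995 ± 822 TPM) drew level with z1C1_7 (5991 ± 275 TPM), and these were the neighbours that overlapped. The ratio of z1C1_12 to z1C1_8 was 8.57 ± 1.31 in ded1-ref and 1.41 ± 0.548 in normal endosperm (SD, n = 4 each). The ratio of z1C1_12 to z1C1_7 was 0.999 ± 0.101 in ded1-ref and 0.280 ± 0.0759 in normal endosperm. Such ratios between copies do not depend on how a library is scaled.

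**Figure D2:**
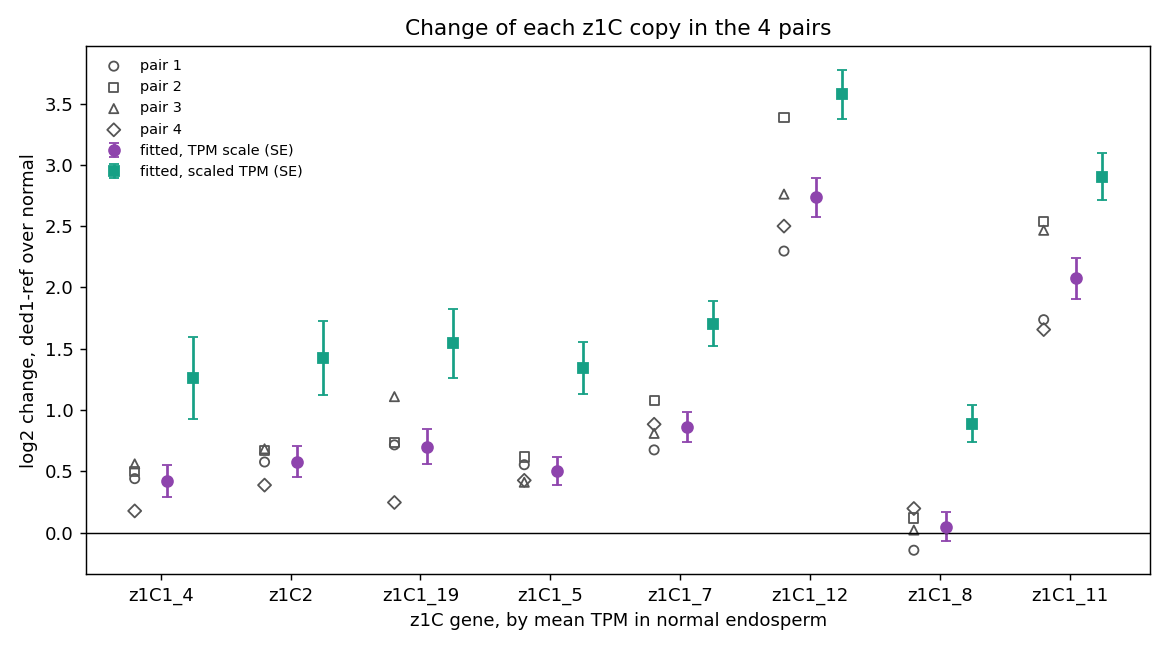
log2 change of each z1C gene, ded1-ref over normal, in the 4 pairs (open symbols, TPM) and as fitted with its standard error on the TPM scale (filled circles) and on scaled TPM (filled squares). z1C1_8 lies on both sides of 0 among the pairs, while every pair of the other 7 copies is above 0.

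The change in each pair was of the same sign in all 4 pairs for 7 members. For z1C1_12 the fold was 4.91, 10.4, 6.78 and 5.66 in pairs 1 to 4, and for z1C1_11 it was 3.33, 5.80, 5.53 and 3.15. Both copies had their largest fold in pair 2. z1C1_7 changed by 1.60-fold to 2.11-fold, z1C1_5 by 1.33-fold to 1.53-fold and z1C2 by 1.31-fold to 1.61-fold. Pair 4 gave the smallest fold for z1C1_4 (1.13), z1C1_19 (1.19), z1C2 (1.31) and z1C1_11, pair 1 for z1C1_7 and z1C1_12, and pair 3 for z1C1_5. z1C1_8 was lower in ded1-ref in pair 1 (a fold of 0.905) and higher in the other 3, by at most 1.146-fold.

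Within the z1C transcripts, z1C1_12 and z1C1_11 gained share. z1C1_4 made up 43.1%, 44.1%, 42.1% and 43.0% of the z1C sum in ded1-ref, against 47.1%, 48.7%, 46.6% and 47.9% in normal endosperm. Every ded1-ref library was below every normal one, but its change relative to the z1C sum did not pass (log2 change -0.14 ± 0.15 SE, limma adjusted p = 0.368). This SE is moderated over all tested genes and is not the spread of these pairs alone. As z1C1_4 is a large part of that sum, it was also set against the other 7 members, where its log2 change was -0.26 (limma adjusted p = 0.0991). z1C1_12 made up 3.76%, 3.08%, 3.08% and 3.39% in ded1-ref, against 1.14%, 0.461%, 0.740% and 0.754% in normal endosperm, with no overlap. This copy was higher relative to the z1C sum (log2 change 2.17 ± 0.18 SE, limma adjusted p = 2.1e-11). z1C1_11 made up 0.115% ± 0.0304 in ded1-ref and 0.0408% ± 0.0164 in normal endosperm (SD, n = 4 each), also with no overlap (log2 change 1.52 ± 0.19 SE, limma adjusted p = 8.2e-08). Relative to the z1C sum, 1.59% of all tested genes were higher and 89.4% were lower, and 0.922% stood higher and 76.6% lower with no overlap between groups.

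z1C1_8 lost share within the subfamily, as most tested genes did against the z1C sum. It made up 0.373%, 0.422%, 0.400% and 0.368% of the z1C sum in ded1-ref, against 0.611%, 0.608%, 0.643% and 0.404% in normal endosperm. The share was lower in all 4 pairs, while normal replicate 4 lay among the ded1-ref libraries (log2 change relative to the z1C sum -0.51 ± 0.18 SE, limma adjusted p = 0.00762). Without replicate 1 the change was -0.45 and the call was lost (limma adjusted p = 0.0858). The other copies did not pass relative to the z1C sum. z1C2 held 31.0% ± 0.864 in ded1-ref and 30.6% ± 0.803 in normal endosperm, and z1C1_19 held 12.6% ± 2.00 in ded1-ref and 11.3% ± 0.179 in normal endosperm (SD, n = 4 each). z1C1_5 held 6.16% ± 0.828 in ded1-ref and 6.38% ± 0.243 in normal endosperm, and z1C1_7 held 3.34% ± 0.279 in ded1-ref and 2.72% ± 0.288 in normal endosperm. The limma adjusted p-values for z1C2, z1C1_19, z1C1_5 and z1C1_7 were 0.912, 0.404, 0.719 and 0.0856.

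**Figure D3:**
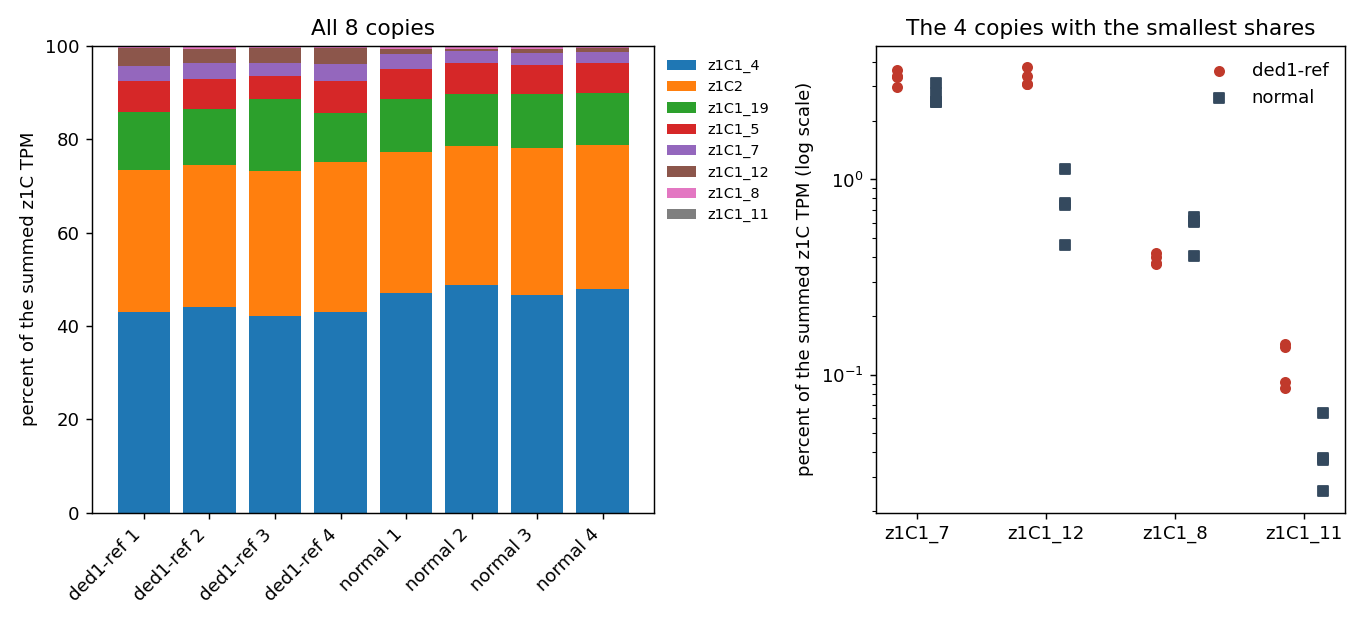
Share of the summed z1C TPM taken by each gene, as stacked bars for the 4 libraries labelled ded1-ref and the 4 normal libraries (left), and on a log scale for the 4 smallest shares (right; circles ded1-ref, squares normal). z1C1_4 is at 42.1% to 44.1% in ded1-ref and 46.6% to 48.7% in normal libraries, and z1C1_12 and z1C1_11 are higher in ded1-ref with no overlap.

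Copies were called dominant where their mean share of the z1C sum in normal endosperm reached the equal share of 12.5%, and low otherwise. The dominant copies were z1C1_4 at 47.6% and z1C2 at 30.6%, and the copy nearest below the limit was z1C1_19 at 11.3%. Since the normal level set these classes, the contrast is a description with no test. The dominant copies summed to 133211 ± 8686 TPM in ded1-ref and 95282 ± 6713 TPM in normal endosperm, a ratio of means of 1.398. The 6 low copies summed to 46792 ± 5333 TPM in ded1-ref and 26612 ± 2351 TPM in normal endosperm, a ratio of 1.76. The low copies held 26.7%, 25.5%, 26.8% and 24.8% of the z1C sum in ded1-ref, against 22.8%, 21.5%, 21.8% and 21.2% in normal endosperm. The low class was not uniform, since it holds both the copy with the largest fold, z1C1_12, and z1C1_8, which did not pass in TPM. The low class held 4.12 percentage points more in ded1-ref. To this z1C1_11 and z1C1_12 together added 2.63, z1C1_19 added 1.26 and z1C1_7 added 0.623. The shares of z1C1_5 and z1C1_8 changed by -0.219 and -0.176 points. The part of z1C1_19, whose shares overlapped, was 0.437 without replicate 3 and 1.89 without replicate 4, and z1C1_7 was higher in 4 of 4 pairs. Between the dominant copies, the ratio of z1C2 to z1C1_4 was 0.720 ± 0.0273 in ded1-ref and 0.644 ± 0.0270 in normal endosperm, with no overlap (SD, n = 4 each).

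**Figure D4:**
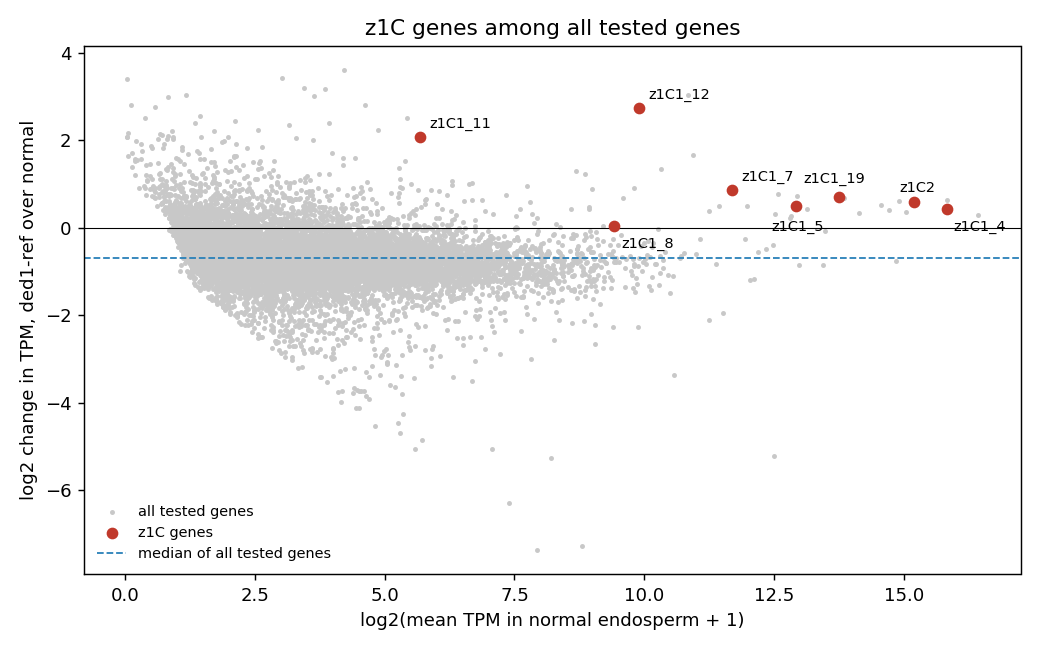
log2 change in TPM of ded1-ref over normal against the mean level in normal endosperm, log2(TPM + 1), for 13671 tested genes (grey) and the 8 z1C genes (red), with the median of all tested genes as a dashed line at -0.68. The z1C genes all lie above the median, z1C1_12 and z1C1_11 at 2.73 and 2.07 and z1C1_8 at 0.05.

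z1C1_19 has 3 transcript rows. T01 stood at 11958 ± 2590 TPM in ded1-ref and 6773 ± 884 TPM in normal endosperm, and T03 at 10898 ± 2611 TPM in ded1-ref and 7045 ± 261 TPM in normal endosperm (SD, n = 4 each). T02 was minor, at 9.07 ± 1.36 TPM in ded1-ref and 5.59 ± 1.54 TPM in normal endosperm. In the authors' deposited table the log2 fold of ded1-ref over normal was 1.64 for T01, 1.46 for T02 and 1.47 for T03. The authors' deposited table also lists 3.28 for z1C1_12, 2.69 for z1C1_11, 1.66 for z1C1_7, 1.41 for z1C2, 1.33 for z1C1_5, 1.26 for z1C1_4 and 0.88 for z1C1_8. Another 3 z1C-named genes had rows outside the chosen members. z1C1_6 stood at 5673 ± 817 TPM in ded1-ref and 4050 ± 677 TPM in normal endosperm, z1C1_2 at 3946 ± 367 TPM in ded1-ref and 2782 ± 212 TPM in normal endosperm, and z1C1_1 at 523 ± 71.4 TPM in ded1-ref and 385 ± 25.7 TPM in normal endosperm. All 3 rose. With them the z1C share of all TPM was 19.01% ± 1.31 in ded1-ref and 12.9% ± 0.958 in normal endosperm.

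The z1C sum was set against other alpha zeins, the z1A and z1B genes matched by name. Genes without a matched name, AF546188.1_FG007 below among them, are in neither sum. These sums therefore need not cover all other alpha zeins. The ratio of the z1C sum to the sum of 9 z1A genes was 1.204, 1.150, 1.095 and 0.956 in ded1-ref, against 1.009, 1.032, 1.134 and 1.159 in normal endosperm. These groups overlapped, and the ratio was higher in ded1-ref in 2 of 4 pairs. All 9 z1A genes rose, against 3.53% of all tested genes. Among them z1A1_5 passed narrowly in TPM (limma adjusted p = 0.0472), with overlapping groups and higher TPM in 3 of 4 pairs. The z1A genes had a median log2 change of 0.52 on the TPM scale, against 0.64 for the z1C members. Over all 11 z1C-named genes with rows, that median was 0.50, so the subfamilies did not differ clearly in it. z1B_8, the 1 matched gene of its subfamily, stood at 6016 ± 876 TPM in ded1-ref and 1955 ± 660 TPM in normal endosperm. The ratio of the z1C sum to z1B_8 was 30.2 ± 3.28 in ded1-ref and 66.5 ± 16.6 in normal endosperm, with no overlap. z1B_8 itself rose, by 1.67 ± 0.15 in log2 TPM (SE; limma adjusted p = 2.9e-06).

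The 5 gamma, beta and delta zein genes, which code for the other protein body proteins, were set against the z1C sum. The ratio of the z1C sum to their sum was 4.64, 4.40, 3.92 and 4.71 in ded1-ref, against 2.34, 1.65, 1.65 and 2.49 in normal endosperm. All ded1-ref ratios were above all normal ones. Of the 5 genes, 4 were lower and 0 higher in TPM, and 1 was higher after scaling (limma). In TPM 0 were higher and 4 lower at an unadjusted p under 0.05, and 1 was higher and 3 lower by limma-voom on recovered reads. These counts lie near the 69.8% of all tested genes lower in TPM and the 12.3% higher after scaling. gz16, a gamma zein gene, stood at 17629.7 ± 3771 TPM in ded1-ref and 29448 ± 4296 TPM in normal endosperm, with log2 changes of -0.75 in TPM (limma adjusted p = 3.6e-04) and 0.09 after scaling (limma adjusted p = 0.850).

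**Figure D5:**
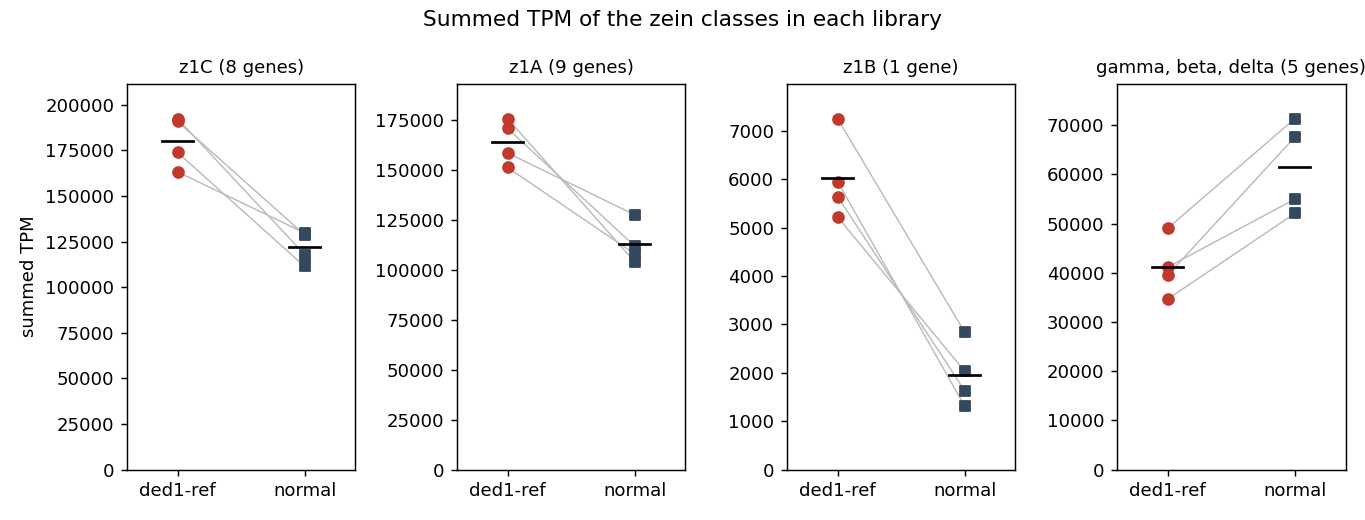
Summed TPM of the z1C, z1A, z1B and the gamma, beta and delta zein genes in libraries labelled ded1-ref (circles, left in each panel) and normal libraries (squares), with pairs joined and group means as bars. The z1C, z1A and z1B sums are higher in ded1-ref in 4 of 4 pairs, and the last class is lower in 4 of 4 pairs. The z1A, z1B and last classes hold only genes matched by name.

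The zein regulators were read beside the z1C genes. Of 9 regulator names, 5 matched 6 gene IDs, and 4 of these IDs were tested. In TPM 3 of them were lower in ded1-ref, as 69.8% of all tested genes were, and after scaling 0 passed in either direction (limma; also 0 at an unadjusted p under 0.05 and 0 by limma-voom on recovered reads), where 12.3% of all tested genes were higher and 10.6% lower. So few genes do not stand apart from that background. Their median log2 change was -0.66 in TPM, against -0.68 for all tested genes, and 0.17 after scaling. o2 (GRMZM2G015534), opaque2, the known activator of z1C genes, had 113, 110.1, 128 and 70.1 TPM in ded1-ref, against 128, 164, 205 and 169 TPM in normal endosperm. The highest ded1-ref library was just below the lowest normal one, and the scaled log2 change was 0.17 ± 0.19 (SE; limma adjusted p = 0.582). PBF (GRMZM2G146283), the prolamin-box binding factor that acts beside Opaque2 on zein promoters, had 138, 180.0, 152 and 171 TPM in ded1-ref, against 239, 296, 263 and 216 TPM in normal endosperm (scaled log2 change 0.18 ± 0.14 SE, limma adjusted p = 0.403). MADS47 (GRMZM2G099577), a partner of Opaque2, stood at 2.81 ± 0.227 TPM in ded1-ref and 7.14 ± 1.21 TPM in normal endosperm (SD, n = 4 each; scaled log2 change -0.39 ± 0.19 SE, limma adjusted p = 0.172). A second gene ID matched to PBF (GRMZM2G146267) stood at 1.91 ± 0.697 TPM in ded1-ref and 2.64 ± 0.422 TPM in normal endosperm, with overlap. ohp1 and ohp2, relatives of opaque2, were too low to be tested, at 0.704 and 0.130 TPM in ded1-ref and 0.949 and 0.407 TPM in normal endosperm.

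Genes of the endoplasmic reticulum, in which zeins are folded and packed, were read in the same way. Of 17 matched gene IDs 11 were tested. Of these 0 were higher and 8 lower in TPM, 3 were higher and 1 lower after scaling, and 1 fell (limma). In TPM 1 was higher and 9 lower at an unadjusted p under 0.05, and 1 was higher and 4 lower by limma-voom. After scaling 5 were higher and 3 lower at an unadjusted p under 0.05, and 4 were higher and 1 lower by limma-voom. Over all tested genes 3.53% were higher and 69.8% lower in TPM, and 12.3% higher and 10.6% lower after scaling. The list holds few genes and was not tested as a set, so no result is drawn from its counts. The 3 higher after scaling were pdi8, CRT and Floury1. pdi8 (GRMZM2G389173) was lower in TPM and higher after scaling (log2 change -0.34 and 0.50, limma adjusted p = 0.0255 and 0.0348). pdi2 (GRMZM2G163421), a protein disulfide isomerase gene, fell to 2.84, 3.32, 1.67 and 3.33 TPM in ded1-ref, against 26.9, 27.2, 28.5 and 25.7 TPM in normal endosperm (log2 change -2.91 ± 0.20 SE in TPM, limma adjusted p = 3.9e-07). bip1 (GRMZM2G114793), of the BiP chaperones that bind zeins, had 545, 661, 446 and 373 TPM in ded1-ref, against 676, 714, 589 and 614 TPM in normal endosperm. Its groups overlapped, and its scaled log2 change of 0.46 ± 0.16 (SE) did not pass (limma adjusted p = 0.0644). CRT (GRMZM2G358059), the calreticulin gene, had 214, 256, 205 and 211 TPM in ded1-ref, against 172, 188, 189 and 183 TPM in normal endosperm. Its groups did not overlap, but it did not pass in TPM (log2 change 0.27, limma adjusted p = 0.0625). It passed after scaling only, with a log2 change of 1.11 ± 0.13 (SE; limma adjusted p = 3.5e-04). Floury1 (GRMZM2G094532), which codes for a protein body membrane protein, stood at 94.0 ± 11.6 TPM in ded1-ref and 112 ± 23.4 TPM in normal endosperm (SD, n = 4 each). Its groups overlapped and it did not pass in TPM (limma adjusted p = 0.145). After scaling it was higher, with a log2 change of 0.59 ± 0.12 (SE; limma adjusted p = 0.00678).

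Markers of other kernel cells were read beside the z1C sum. All 6 basal transfer layer markers fell, against 10.6% of all tested genes, and their summed level was 150.4 to 292 TPM in ded1-ref and 489 to 1220.3 TPM in normal endosperm. Of 4 aleurone markers 3 rose, against 3.53% of all tested genes, and dek1 was lower in TPM with no overlap (log2 change -0.82, limma adjusted p = 0.00892) but not after scaling. The aleurone markers had sums of 11.2 to 35.1 TPM in ded1-ref and 14.9 to 19.7 TPM in normal endosperm. Of 10 embryo markers 4 were tested and MGL3 rose, though its groups overlapped. After scaling 3 of the 4 were higher, MGL3, ole1 and wox2A, against 12.3% of all tested genes. All 4 were higher after scaling at an unadjusted p under 0.05 and by limma-voom. dhn1, too low to be tested, stood at 2.69 ± 2.15 TPM in ded1-ref and 0.331 ± 0.224 TPM in normal endosperm, with no overlap (SD, n = 4 each). The embryo sums were 243 to 460.1 TPM in ded1-ref and 298 to 528 TPM in normal endosperm, and wus1 and wox5B were at 0 in all 8 libraries. The part of these cell types in the z1C result was not tested.

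The genes whose profile over the 8 libraries was most like that of the z1C sum were sought among all tested genes outside the members. Likeness was the root mean square difference of log2(TPM + 1) values, each centred on its own mean. The nearest was AF546188.1_FG007, at 0.0678 log2 units, which no table used here names and which stood at 90902 ± 9294 TPM in ded1-ref and 58073 ± 4410 TPM in normal endosperm (SD, n = 4 each). z1A2_1 followed at 0.0860 and z1A2_2 at 0.110, both alpha zein genes. GRMZM2G010290 and GRMZM2G102069 came next at 0.123 and 0.129, but their levels are low, at 1.39 and 3.30 TPM in ded1-ref and 0.633 and 2.18 TPM in normal endosperm. Among the members, z1C2 lay nearest to the sum, at 0.0348, and z1C1_12 farthest, at 1.14.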

How the data were processed

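Per the labels, total RNA of 8 endosperm pools was made into libraries that do not mark strand and read from both ends, so reads of a gene and an antisense partner cannot be told apart. The tools cutadapt 1.1, Trimmomatic 0.22 and GSNAP are named, per the submitters' processing notes; the sources used here give neither the read counter nor the build. The authors deposited TPM for 63293 transcript rows, and a table of their own comparison with, per the file headers, a mean normalized signal, a log2 fold and its SE, a test score and a p-value, raw and adjusted. The score has the opposite sign of the fold in all 38727 rows with a fold, so the fold column's header set the direction.

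No column holds counts. Signal and TPM together gave whole reads, to within 0.05, for 100% of 236228 values above 0, and these served for depth and one alternative. Rows were summed to genes, and log2(TPM + 1) was fitted with limma 3.58.1 (trend) in R 4.3.3 where 4 or more libraries reached 1 TPM, with a block for the replicate number, Benjamini-Hochberg adjustment and a threshold of 0.05. Values on this scale understate the change of low genes. The scaled test used median-of-ratios factors, and the test relative to the z1C sum used TPM divided by that sum. All 3 fits cover the same genes, and the fitting script was tested on simulated data. The design text states the pairing; same-numbered libraries' deviations from their group means correlated at 0.115, 0.333, 0.309 and 0.149. The p-values rest on the spread between these pools, moderated over all tested genes, and not on the spread of a gene's own pairs alone. The name table, of the assembly Zm-B73-REFERENCE-NAM-5.0, matched 18771 of 39423 IDs; no coordinates are given and no sequences were used. Named genes are the 8 members, ded1, the regulator and endoplasmic reticulum lists, and the 5 most alike genes, while zein and marker genes beyond these were named after their values were seen. The members and lists were chosen with earlier results of these data known. Genes that matched a list name by a like name alone, CNX5 among them, were left out.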

Additional observations from a re-analysis of the deposited data

Results flagged for a closer look

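In 52 groups of 4 libraries, a library was looked for whose distance to the nearest other, as part of the group's range, exceeds Dixon's critical value for 4 libraries, which chance gives in about 1 of 20 groups. It was found in 3. z1C1_5 made up 4.94% of the z1C sum in ded1-ref replicate 3, below the 6.45% to 6.76% of the other libraries labelled ded1-ref. z1C1_8 made up 0.404% of the z1C sum in normal replicate 4, below the 0.608% to 0.643% of the other normal libraries. ded1 stood at 101 TPM in ded1-ref replicate 3, above the 67.3 to 69.7 TPM of the others.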

How the results depend on the processing

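The calls of z1C1_12, z1C1_11, z1C1_7 and z1C1_5 on both scales held under every alternative run, and so did those of z1C1_12 and z1C1_11 relative to the z1C sum. Without the filter on low values z1C1_4 kept its log2 changes of 0.42 in TPM and 1.26 after scaling. Both its calls were lost (limma adjusted p = 0.123 and 0.308). In the same fit z1C1_19 (1.54) and z1C2 (1.42) lost the scaled call (limma adjusted p = 0.0724 and 0.185). With the other zein genes matched by name removed from the TPM, z1C1_4 did not pass in the scaled test (1.26, limma adjusted p = 0.0749). Leaving out each replicate in turn gave 0.37 to 0.50 in TPM and 1.11 to 1.37 after scaling for z1C1_4, 1.28 to 1.52 in the scaled test for z1C2, and -0.00185 to 0.11 on the TPM scale for z1C1_8. Relative to the z1C sum it gave -0.64 to -0.45 for z1C1_8 and -0.11 to 0.018 for z1C1_5, and the number of genes lower in the scaled test was 921 to 1205, against 1444 in all. With the highest transcript row of each gene alone, the gain in share of z1C1_12 was 2.72 percentage points and the log2 ratio of low to dominant copies 0.39, against 2.56 and 0.33, since this leaves out rows of z1C1_19. With no replicate block no call of a member changed; the log2 change of z1C1_8 relative to the z1C sum was -0.51 (adjusted p = 0.0153). The cause of the other losses was not tested. Depth did not limit the members, but TPM keep none, and the addition of 3 further z1C-named genes was chosen after seeing the data.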
